A study of Homo sapiens with 24 samples.

Results

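The genes described here encode the nuclear part of respiratory complexes II to V, the mobile carrier cytochrome c and factors that help to assemble these complexes. They are the single-gene entries of the count tables whose symbol is SDHA to SDHD, starts with SDHAF, UQCR, UQCC, COX plus a digit, or ATP5, or is CYC1 or CYCS. The rule found 67 of 19242 single-gene entries, with 65 symbols, because UQCR11 and SDHD each have 2 gene identifiers. Complex II had 7 entries, complex III 12, cytochrome c 1, complex IV 27 and complex V 20. The RNA came from HEK293, an established human embryonic kidney cell line, in 24 libraries of polyadenylated RNA. A control line overexpressing a Flag/HA tag and a line overexpressing Flag/HA-tagged ZC3H7B, an RNA-binding protein (ZC3H7B-OE), were each sampled at 0, 2, 4 and 6 h of a chase, with 3 libraries in each of 8 groups. All groups first received 100 µM 4-thiouridine (s4U) and 1 µg/mL doxycycline during a 24 h pulse, and the chase used 10 mM uridine. Reads with T-to-C conversions, which are taken to mark RNA made in the pulse, are called labelled reads. The sources used here do not say how T-to-C mismatches of other origin were handled. The labels do not say that the libraries of a group are separate cultures, so a p-value here weighs a difference against the spread among libraries only, and that spread may be technical.

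Complex II (succinate dehydrogenase) passes electrons from succinate to ubiquinone, complex III passes them from ubiquinol to cytochrome c, and complex IV (cytochrome c oxidase) passes them from cytochrome c to oxygen. Complexes III and IV pump protons, and complex V (ATP synthase) lets protons flow back to make ATP. Most subunits are encoded in the nucleus, and many of their promoters are known to hold sites for nuclear respiratory factor 1 (NRF1), ETS factors such as GABP (NRF2) and YY1.

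Promoters in the RefSeq table, which run from 250 bases before to 50 bases after a gene's start in GRCh38.p14, could be matched to 49 of the 67 members. GCATGCGC, the core of the NRF1 motif, was present on either strand in 13 of 49 member promoters (26.5%), against 3.68% of 27305 genes. CCGGAAG, an ETS core, was present in 20 of 49 (40.8%), against 12.2% of all genes, and AAGATGGC, a YY1 core, in 7 of 49 (14.3%), against 3.52%. At least 1 of the 3 was present in 28 of 49 (57.1%) and in 17.6% of all genes. Among the 15843 coding genes in the table, the 3 motifs were present in 4.89%, 16.5% and 4.66%. These are matches of letters and not measured binding, and an ETS and a YY1 match can share the letters AAG, in which case both were counted. By complex, the NRF1 core was in 3 of 5 matched promoters of complex II, 1 of 9 of complex III, 4 of 22 of complex IV and 4 of 12 of complex V. The ETS core was in 3, 3, 9 and 5 of them.

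The next sequences show one matched promoter for each complex and for cytochrome c, from members that were lower at 6 h than at 0 h of chase in the control line. For CYCS this rested on control 0 h replicate 3, a library described below. Without it the log2 change of CYCS was -0.15 (edgeR adjusted p = 0.256). They are written 5′ to 3′ on the gene's strand, with matches to the NRF1, ETS or YY1 letters, on either strand, in capitals. SDHB, the iron-sulfur subunit of complex II (chr1:17053983-17054282, minus strand), holds all 3 motifs. UQCRQ of complex III (chr5:132866392-132866691, plus strand) holds an ETS match. CYCS (chr7:25125211-25125510, minus strand) holds an NRF1 match. COX6A1 of complex IV (chr12:120437863-120438162, plus strand) holds an NRF1 match on each strand and an ETS match on the reverse strand. ATP5F1 (now ATP5PB), the b subunit of complex V (chr1:111449214-111449513, plus strand), holds a YY1 match on the reverse strand.

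SDHB: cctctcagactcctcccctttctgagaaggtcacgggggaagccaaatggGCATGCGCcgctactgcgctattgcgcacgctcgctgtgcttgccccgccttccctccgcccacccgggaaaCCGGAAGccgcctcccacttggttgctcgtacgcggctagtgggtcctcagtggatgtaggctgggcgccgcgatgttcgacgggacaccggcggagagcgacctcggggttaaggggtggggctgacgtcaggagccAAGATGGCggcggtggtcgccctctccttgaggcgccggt

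UQCRQ: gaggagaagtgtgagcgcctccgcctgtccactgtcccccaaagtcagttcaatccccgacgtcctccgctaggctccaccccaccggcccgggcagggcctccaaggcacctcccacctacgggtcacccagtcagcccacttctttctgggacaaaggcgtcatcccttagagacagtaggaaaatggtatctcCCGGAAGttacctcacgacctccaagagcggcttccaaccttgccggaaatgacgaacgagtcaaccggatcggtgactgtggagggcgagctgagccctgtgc

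CYCS: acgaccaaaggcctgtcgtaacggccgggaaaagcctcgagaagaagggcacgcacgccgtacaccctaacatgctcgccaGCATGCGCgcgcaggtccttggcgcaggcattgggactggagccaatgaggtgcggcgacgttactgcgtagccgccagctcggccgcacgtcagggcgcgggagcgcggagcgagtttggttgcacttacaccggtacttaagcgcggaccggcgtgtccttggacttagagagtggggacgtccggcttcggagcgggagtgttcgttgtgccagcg

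COX6A1: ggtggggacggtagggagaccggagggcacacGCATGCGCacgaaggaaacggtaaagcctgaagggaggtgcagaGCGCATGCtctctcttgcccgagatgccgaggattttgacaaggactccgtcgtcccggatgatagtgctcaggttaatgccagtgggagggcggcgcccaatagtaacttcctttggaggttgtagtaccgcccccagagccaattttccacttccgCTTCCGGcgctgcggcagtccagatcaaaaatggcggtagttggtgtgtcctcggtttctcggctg

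ATP5F1: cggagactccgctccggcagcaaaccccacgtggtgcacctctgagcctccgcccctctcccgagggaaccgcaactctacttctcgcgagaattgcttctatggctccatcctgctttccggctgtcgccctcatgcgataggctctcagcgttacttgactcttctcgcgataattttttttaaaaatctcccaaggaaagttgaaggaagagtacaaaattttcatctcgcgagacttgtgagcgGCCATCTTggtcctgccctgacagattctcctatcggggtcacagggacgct

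Depth ranged from 1502068 to 3676254 reads per library, and the labelled reads from 830574 to 1579744. ZC3H7B itself had 270 ± 74.2 CPM (the depth-scaled read count, with TMM factors; SD, n = 12 libraries) in control and 329 ± 75.3 in ZC3H7B-OE, a log2 difference of 0.28 (SE 0.08, edgeR adjusted p = 0.0035). The table does not show whether its reads come from the introduced or the endogenous gene. At 2 h it was no higher in ZC3H7B-OE, with 291, 358 and 325 CPM against 376, 377 and 283 in control. Over all libraries EPCAM, KRT8, KRT18 and VIM, markers checked for HEK293, had 1281, 724, 521 and 241 reads. Of leukocyte markers PTPRC had none, CD68 4195, FCER1G 269 and CD79A 184, and of fibroblast markers DCN had none, LUM 6 and COL1A1 67. EPCAM was lower in ZC3H7B-OE (log2 difference -0.47, edgeR adjusted p = 0.0147), and whether this bears on the members was not tested.

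Control 0 h replicate 3 stood apart. Its members took 1.20% of its reads, against 0.337% to 0.658% in the other 23 libraries. Only 11032 genes had a read there, and its mean correlation with its 2 group mates was 0.914, the lowest of the 24 libraries. Most results on the members that use it are therefore also given without it. The labelled odds at 6 h came from a joint fit of all 24 libraries that was not repeated without it. The values of ZC3H7B, EPCAM and GABPA are also given only with it. Relative to each member's mean over all libraries, the median deviation in it was 2.15 on the log2 scale for complex IV, 1.78 for complex V, 1.69 for complex III and 0.83 for complex II. The other 2 control libraries at 0 h had 0.51 and 0.73 for complex IV. The cause of this library's profile was not tested.

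**Figure D1:**
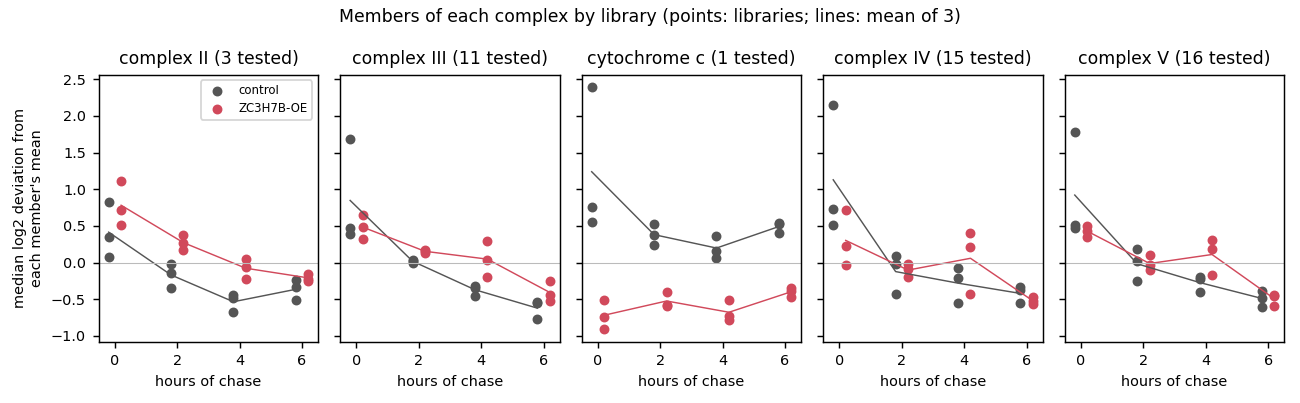
Median log2 deviation of the tested members of each complex from their own means, by hours of chase; each point is a library and lines join the means of 3. Control 0 h replicate 3 is the top point at 0 h in the panels of complexes III, IV and V and cytochrome c, and cytochrome c alone is lower in all ZC3H7B-OE libraries than in all control libraries.

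Of the 67 members, 46 had enough reads to be tested. These were 3 of 7 in complex II, 11 of 12 in complex III, cytochrome c, 15 of 27 in complex IV and 16 of 20 in complex V. SDHC, which anchors complex II in the membrane, and COX4I2 and COX7B2, tissue-restricted forms of complex IV subunits, had no read in any library. A count of 0 allows up to 3 reads of 57419951, or 0.0522 CPM, for counting error only. The other 18 untested members had 4 to 136 reads in all. Besides tissue-restricted forms they included core genes, with 88 reads for UQCRC2, 102 for COX4I1, 35 for COX6C and 46 and 17 for the 2 SDHD identifiers. Whether these core genes were lost in counting was not tested. Entries that name several genes held reads of some members as well, with 99254 reads for the entry of MBD3 and UQCR11, 9008 for the entry of both UQCR11 identifiers, 68975 for that of ATP5J2-PTCD1 and PTCD1, and 6885 for an entry with SDHAF2. The values of these members are therefore uncertain, as are those of ATP5EP2 and COX6A1P2, processed pseudogenes that are near copies of ATP5E and COX6A1.

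Between the lines, averaged over the 4 chase times, 18 of the 46 tested members differed, 9 higher and 9 lower in ZC3H7B-OE. Over all 10038 entries tested, 20.3% were called higher and 25.4% lower, so the members' shares were near the background. Their median log2 difference was -0.03, against 0.01 for all entries. The complexes did not move as units. Complex II had 2 higher and 1 lower of 3, complex III 3 higher and 1 lower of 11, complex IV 0 higher and 3 lower of 15 (median -0.26), complex V 4 higher and 3 lower of 16 (median 0.10), and cytochrome c was lower. With control 0 h replicate 3 left out, 15 were higher and 8 lower of 49 tested, beside 21.7% and 24.8% of all entries, and 17 of the 18 calls were kept. Complex IV then had 2 higher and 3 lower of 18 (median -0.07), complex III 5 and 1 of 11 (median 0.32), complex V 6 and 3 of 16 (median 0.24) and complex II 2 and 0 of 3. With the 0 h groups left out, 17 members were higher and 7 lower (median 0.24), beside 44.2% of all entries called in either direction. For this setting the shares of all entries by direction and their median are not given, so the split by direction was not compared with the background. No test compared one complex with another.

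**Figure D2:**
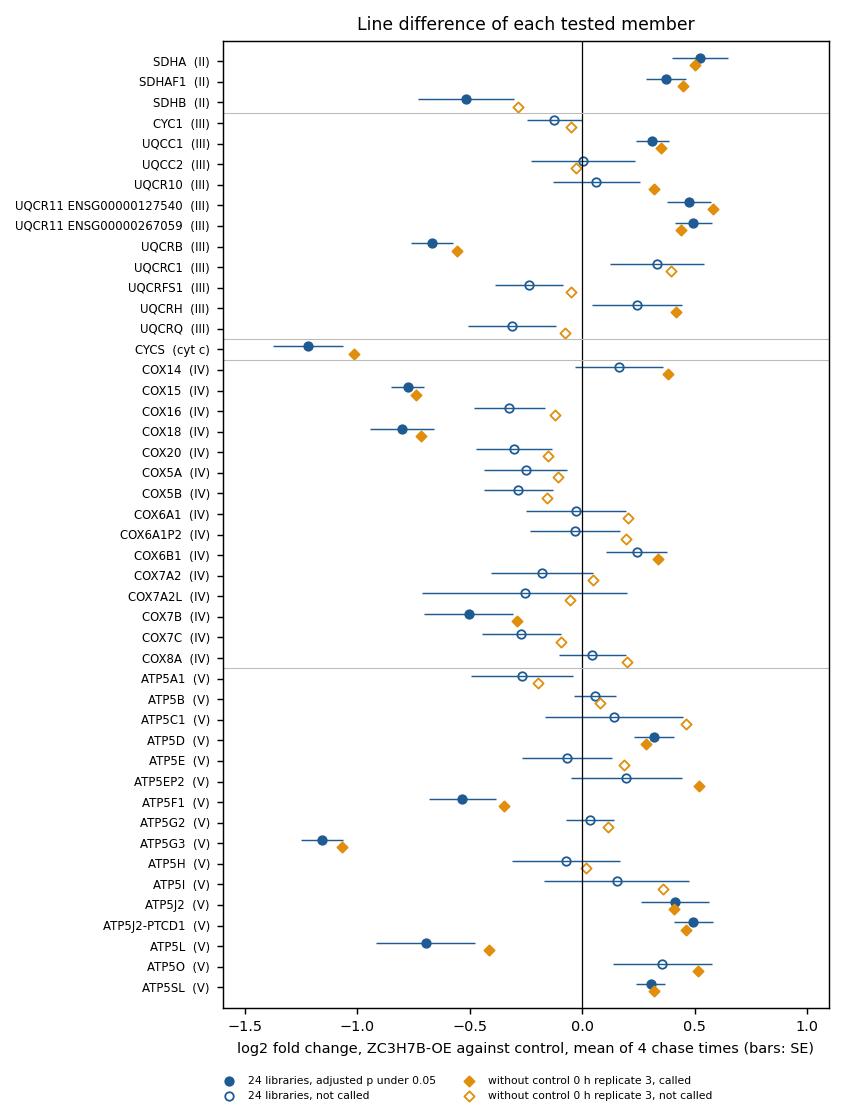
Log2 fold change of each tested member between ZC3H7B-OE and control, as the mean of 4 chase times, with standard errors; circles use 24 libraries, diamonds leave out control 0 h replicate 3, and filled symbols have an adjusted p under 0.05. CYCS and ATP5G3 lie farthest to the left, and calls in both directions are found in complexes II, III and V.

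CYCS encodes cytochrome c, which carries electrons from complex III to complex IV and, once released into the cytosol, triggers caspase activation. In control, its CPM was 577, 663 and 2067 in the libraries of 0 h, 462, 563 and 509 after 2 h, 505, 410 and 438 after 4 h, and 567, 520 and 566 after 6 h of chase. In ZC3H7B-OE it was 208, 276 and 234, then 295, 259 and 263, then 226, 274 and 235, and at last 284, 309 and 299. Every ZC3H7B-OE library was below every control library. The log2 difference over the 4 times was -1.22 (SE 0.16, edgeR adjusted p = 3.29e-06), a fold of 0.43. Leaving out control 0 h replicate 3 gave -1.02 (adjusted p = 1.57e-25).

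ATP5G3 (now ATP5MC3) is 1 of the genes for the c subunit, which forms the rotating ring of ATP synthase. Its control libraries lay between 107 and 444 CPM (median 147) and its ZC3H7B-OE libraries between 55.8 and 108 (median 73.5). At each of the 4 times, every ZC3H7B-OE library was below every control library of that time. Its log2 difference was -1.16 (SE 0.09, edgeR adjusted p = 7.78e-12), or -1.07 without control 0 h replicate 3 (adjusted p = 1.29e-21). ATP5G2, another gene for the same protein, differed by 0.04 (0.11 without that library) and was not called, and ATP5G1 had 43 reads in all.

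UQCRB, a small subunit of complex III that takes part in ubiquinone binding, had 298 to 654 CPM in control (median 335) and 161 to 280 in ZC3H7B-OE (median 243). The 2 ranges did not overlap. Its log2 difference was -0.67 (SE 0.10, edgeR adjusted p = 1.30e-06), and -0.56 without control 0 h replicate 3. COX15, which makes heme A for complex IV, lay between 152 and 460 CPM in control (median 241) and between 85.2 and 233 in ZC3H7B-OE (median 158). The ranges over all times overlapped, while at each single time the ZC3H7B-OE libraries were below the control libraries. Its log2 difference was -0.78 (SE 0.07, edgeR adjusted p = 2.42e-10), or -0.74 without control 0 h replicate 3.

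COX18, which helps to insert the subunit COX2 into the inner membrane, had 26.8 to 90.3 CPM in control (median 39.3) and 13.8 to 34.9 in ZC3H7B-OE (median 23.0). These ranges overlapped, and the log2 difference was -0.80 (SE 0.14, edgeR adjusted p = 2.50e-05), or -0.72 without control 0 h replicate 3. The other lower calls were ATP5L (-0.70, the g subunit), ATP5F1 (-0.53), SDHB (-0.52) and COX7B (-0.50), a small subunit of complex IV. These 4 rested more on the library that stood apart. ATP5L had 162, 157 and 759 CPM at 0 h in control, ATP5F1 496, 555 and 1619, SDHB 14.8, 23.9 and 77.4, and COX7B 133, 134 and 484. Without that library the log2 differences were -0.41 for ATP5L, -0.35 for ATP5F1, -0.29 for COX7B (adjusted p = 0.0322) and -0.29 for SDHB, whose call was lost (edgeR adjusted p = 0.194).

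Among the members higher in ZC3H7B-OE, SDHA is the flavoprotein that holds the catalytic site of complex II, and SDHAF1 helps to put iron-sulfur clusters into its partner SDHB. SDHA had 13.3 to 34.3 CPM in control (median 18.9) and 17.1 to 53.8 in ZC3H7B-OE (median 26.8), with overlapping ranges. Its log2 difference was 0.52 (SE 0.12, edgeR adjusted p = 0.000775), or 0.50 without control 0 h replicate 3. SDHAF1 had 85.7 to 245 CPM in control (median 117) and 117 to 210 in ZC3H7B-OE (median 158). Its log2 difference was 0.37 (SE 0.09, edgeR adjusted p = 0.000925), and it was 0.45 without control 0 h replicate 3. Within complex II, SDHA and SDHB thus had values on opposite sides of 0, although the SDHB call was lost in 22 of 34 alternative settings.

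UQCR11, one of the smallest subunits of complex III, is listed under ENSG00000127540 and under the overlapping ENSG00000267059. The first lay between 86.4 and 712 CPM in control (median 166) and between 106 and 507 in ZC3H7B-OE (median 302). The second lay between 122 and 277 (median 173) and between 181 and 416 (median 237). The log2 differences were 0.48 (SE 0.10, edgeR adjusted p = 0.000252) and 0.49 (SE 0.08, adjusted p = 7.98e-06), or 0.58 and 0.44 without control 0 h replicate 3. How reads were divided between them is not given in the sources used here. UQCC1, an assembly factor of complex III needed for cytochrome b, differed by 0.31 (SE 0.07, edgeR adjusted p = 0.000777), or by 0.35 without that library. UQCR11 and UQCC1 were thus higher in the line in which UQCRB was lower.

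In complex V, ATP5D (now ATP5F1D), the delta subunit of the central stalk, had 49.7 to 126 CPM in control (median 87.0) and 67.1 to 160 in ZC3H7B-OE (median 109). Its log2 difference was 0.32 (SE 0.09, edgeR adjusted p = 0.00406). ATP5J2, the f subunit, differed by 0.41 (edgeR adjusted p = 0.0233), and the readthrough ATP5J2-PTCD1, which joins it to the neighbouring gene, by 0.50 (adjusted p = 2.09e-05). ATP5SL (now DMAC2) is named after ATP synthase but is known for its part in assembling complex I, and it differed by 0.31 (adjusted p = 0.000207). The catalytic subunit ATP5B differed by 0.06 and was not called. When control 0 h replicate 3 was left out, the differences were 0.28 for ATP5D, 0.41 for ATP5J2, 0.46 for ATP5J2-PTCD1, 0.32 for ATP5SL and 0.08 for ATP5B, with the same calls.

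**Figure D3:**
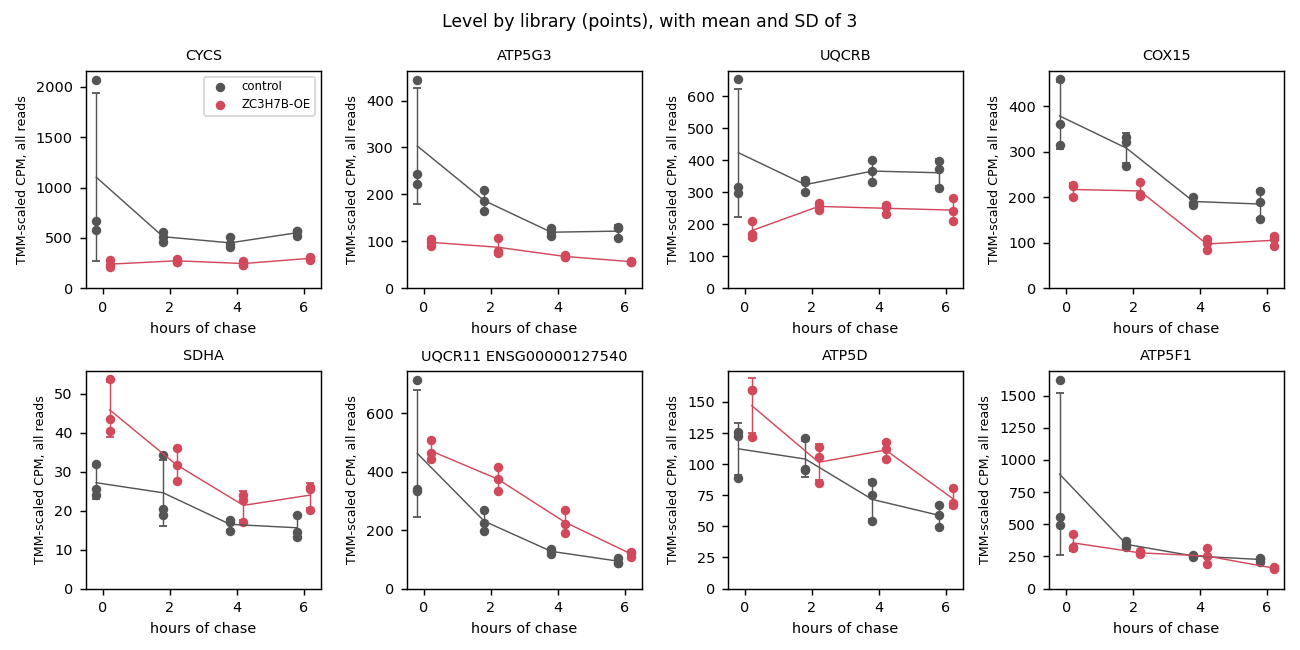
CPM scaled by TMM of 8 members in each library (points) against hours of chase, with the mean and SD of 3 libraries. CYCS, ATP5G3, UQCRB and COX15 are lower in ZC3H7B-OE at every time, SDHA and UQCR11 (ENSG00000127540) have higher ZC3H7B-OE medians, and control 0 h replicate 3 is the highest point for CYCS, ATP5G3, UQCRB, COX15, UQCR11 and ATP5F1 but the lowest at 0 h for ATP5D.

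At 0 h, 4 were higher and 18 lower of 46 (median -0.80), beside 11.7% and 19.5% of all entries. Without control 0 h replicate 3, 5 were higher and 8 lower of 49 (median -0.10), beside 7.31% and 12.9%, and 10 of the 22 calls were kept. The 8 lower members without that library were CYCS, ATP5G3, UQCRB, COX15, COX18, COX16, COX7B and ATP5F1. At 2 h, 3 were higher (UQCR11 ENSG00000127540, SDHAF1 and UQCC1) and 3 lower (COX15, ATP5G3 and COX18), beside 2.19% and 7.26% of all entries. At 4 h, 7 were higher and 3 lower, beside 6.79% and 10.9%, and the 7 included ATP5B, ATP5D, COX6B1 and both UQCR11 entries. At 6 h, UQCR11 (ENSG00000267059) was higher and COX15, ATP5G3 and UQCRB were lower, beside 6.54% and 9.23%.

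Leaving out 1 library moved these counts by over 1.5 times in several cases. With control 0 h replicate 3 left out, 5 members were higher and 5 lower in the 2 h groups, beside 5.40% and 10.5% of all entries. In the 4 h groups 16 were higher and 4 lower, beside 11.8% and 15.2%, and in the 6 h groups 3 were higher and 6 lower, beside 10.7% and 14.7%. Each of these sets, of 10, 20 and 9 calls, included the calls made with it. The 6 calls at 2 h became 2 without replicate 1 and 3 without replicate 2 of that time, in either line. Of the 10 calls at 4 h, omitting control replicate 1 left 5, omitting control replicate 2 left 4, and omitting replicate 2 of ZC3H7B-OE left 5. For 6 h, omitting control replicate 1 left 2 calls, as did omitting replicate 2 of ZC3H7B-OE. The shares of all entries called without a library of 2, 4 or 6 h are not given. Whether these losses are particular to the members was therefore not tested. COX15 and ATP5G3 were the only members called at all 4 times with 24 libraries. With control 0 h replicate 3 left out, CYCS and UQCRB were called at all 4 times as well, each lower in ZC3H7B-OE.

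The difference between the lines was not called as changing along the chase for any of the 46 members (edgeR's F test of the interaction, 0 of 46), beside 1.73% of all entries. At an unadjusted p under 0.05 there were 23, given without the share of all entries. Without control 0 h replicate 3 the count of calls was again 0, of 49, beside 3.71% of all entries. At an unadjusted p under 0.05 there were then 18, beside 1937 of 10526 entries. The count of calls was 20 without control 0 h replicate 1 and 7 without control 0 h replicate 2. In these settings the library that stands apart has 1 group mate. Their shares of all entries are not given, so these counts are not read as a result about the members.

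Between 0 h and 6 h of the chase, most members fell relative to other RNA. In control, 0 members were higher and 37 lower at 6 h than at 0 h, of 46, beside 30.7% higher and 29.9% lower of all entries. The members' median log2 change was -1.56, against -0.05 for all entries. When control 0 h replicate 3 was omitted, 0 were higher and 32 lower of 49 (median -0.98, against -0.01 for all entries), beside 31.0% and 27.8%, and all 32 were among the 37. In ZC3H7B-OE 2 were higher and 30 lower (median -0.87, against -0.08), beside 32.8% and 30.6%. That library also enters the spread and the filter, and without it ZC3H7B-OE had 3 higher and 34 lower of 49, beside 33.2% and 31.7%. Counts were also measured against 2 h, a start chosen after the data were seen. They were 0 higher and 13 lower in control (median -0.29), beside 47.3% of all entries called in either direction. In ZC3H7B-OE they were 0 higher and 15 lower (median -0.45), beside 45.5%. For this start the shares of all entries by direction and their median are not given. Whether the members fell more than other RNA from 2 h on was therefore not tested. The levels are shares of the library, so a fall here is relative to the other polyadenylated RNA.

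**Figure D4:**
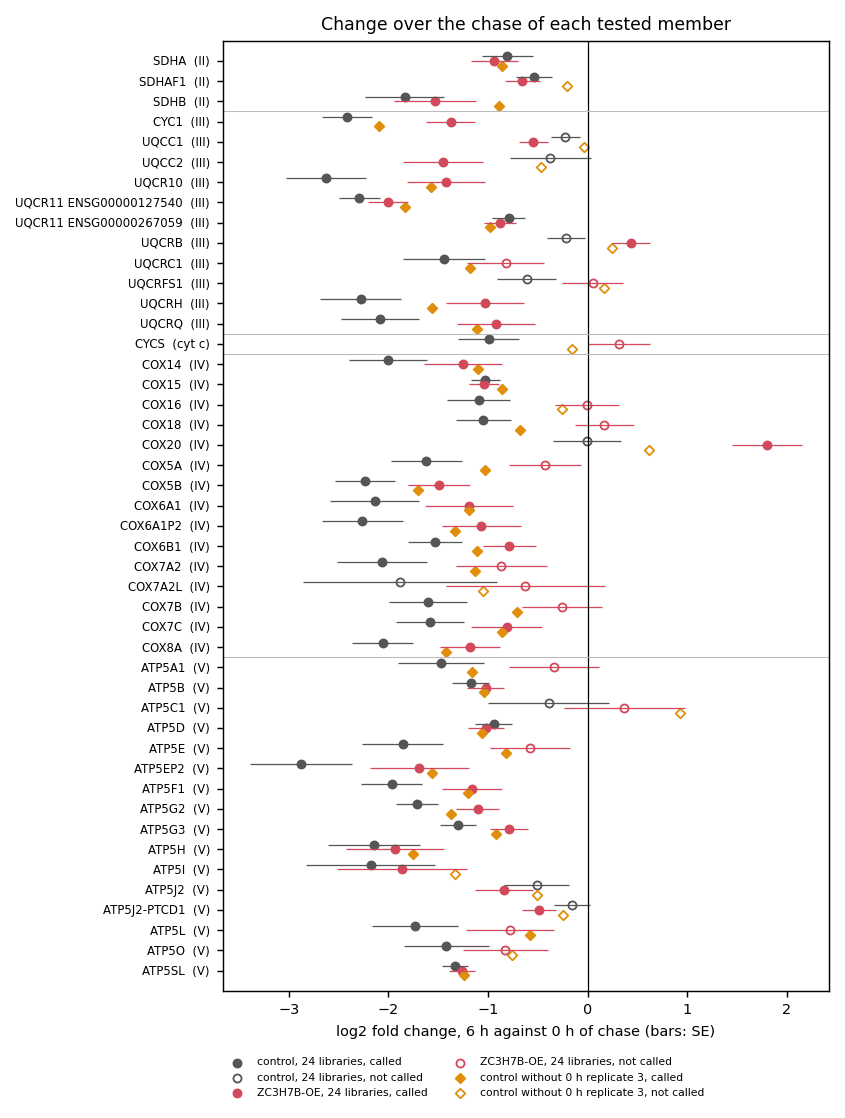
Log2 change between 0 h and 6 h of chase for each tested member, with standard errors, in control (grey circles), in ZC3H7B-OE (red circles) and in control without 0 h replicate 3 (diamonds); filled symbols have an adjusted p under 0.05. Most values lie left of 0 in both lines, and COX20 stands to the right in ZC3H7B-OE.

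By complex, the fall in control was called for 3 of 3 tested members of complex II (median -0.81), 7 of 11 of complex III (median -1.44), 13 of 15 of complex IV (median -1.62) and 13 of 16 of complex V (median -1.44). In ZC3H7B-OE it was called for 3 of 3 (median -0.94), 8 of 11 (-0.92), 8 of 15 (-0.81) and 11 of 16 (-0.93). In the fit that omits control 0 h replicate 3 the control medians were -0.86, -1.11, -0.94 and -1.05, so the medians of complexes II to V lay closer together. Subunits and carriers had a median of -1.67 in control and assembly factors one of -0.78. Without that library the 2 medians were -1.06 and -0.36.

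With all libraries, the lowest change in control was that of the pseudogene entry ATP5EP2, with 182, 179 and 996 CPM before the chase and 63.8, 56.4 and 61.5 after 6 h. Its log2 change was -2.88 (SE 0.51, edgeR adjusted p = 9.52e-05), and -1.56 without the third of these 0 h libraries. UQCR10, a small subunit of complex III, had 59.0, 78.8 and 299 CPM before and 26.1, 24.9 and 17.7 after 6 h of chase. Its log2 change was -2.63 (SE 0.40, edgeR adjusted p = 9.64e-06), or -1.58 without that library.

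CYC1 is cytochrome c1, the heme subunit of complex III that hands electrons to cytochrome c. In control it had 85.6, 99.0 and 161 CPM before and 24.1, 23.5 and 16.6 after 6 h of chase. In ZC3H7B-OE the values were 68.2, 78.0 and 48.1 and then 22.7, 22.9 and 29.7. In both lines every 6 h library was below every 0 h library. The log2 changes were -2.41 (SE 0.25, edgeR adjusted p = 4.93e-10) in control, -2.10 without control 0 h replicate 3, and -1.38 in ZC3H7B-OE (SE 0.25, adjusted p = 1.24e-05). UQCR11 (ENSG00000127540) fell by 2.29 in control, by 1.83 without that library, and by 2.00 in ZC3H7B-OE on the log2 scale.

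The other 9 members were not called in control. Of these, COX20 had 187, 177 and 483 CPM in the 0 h libraries against 197, 373 and 263 in those of 6 h, a log2 change of 0.00 (SE 0.34, edgeR adjusted p = 0.992). Without control 0 h replicate 3 the change was 0.62 and was not called either (adjusted p = 0.0916). COX20, a chaperone of the complex IV subunit COX2, went in ZC3H7B-OE from 102, 118 and 97.4 CPM to 426, 367 and 313. There it rose by a log2 of 1.80 (SE 0.35, edgeR adjusted p = 0.000216), with no overlap of the groups. UQCRB changed by -0.22 in control and by 0.25 without that library (edgeR adjusted p = 0.322 and 0.0867), so the sign turned and neither value was called. It rose by 0.44 in ZC3H7B-OE (adjusted p = 0.0489), a call lost in 21 of 28 alternative settings. The F test did not call a different course of the lines for COX20 or UQCRB.

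The 5 falls in control that were lost without 0 h replicate 3 were those of CYCS, COX16, SDHAF1, ATP5O and ATP5I. CYCS changed by -0.99 in control (SE 0.31, edgeR adjusted p = 0.00911), by -0.15 without that library (adjusted p = 0.256), and by 0.31 in ZC3H7B-OE (adjusted p = 0.391 with all libraries). In the fit without that library the rise in ZC3H7B-OE, again 0.31, was called (edgeR adjusted p = 0.0106). With all libraries the smallest called falls were those of SDHAF1 (-0.54), UQCR11 under ENSG00000267059 (-0.79) and SDHA (-0.81), and these values were -0.21 (not called), -0.98 and -0.86 without control 0 h replicate 3. SDHA went in control from 32.0, 25.6 and 24.0 CPM to 14.6, 13.3 and 18.9, where control 0 h replicate 3 was the lowest of its group.

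Other genes of the same organelle give a setting for these counts. Of 31 tested complex I subunits, 2 were higher and 22 lower at 6 h in control (median -1.32), and of 64 mitochondrial ribosomal proteins, 2 and 48 (median -1.30). Of 27 further assembly factors of complexes III to V, 6 were higher and 16 lower (median -0.99), and of 16 citric acid cycle enzymes, 2 and 7 (median -0.51). Of 12 regulators of mitochondrial biogenesis, 7 were higher and 1 lower (median 0.67). When control 0 h replicate 3 was left out, these were 3 and 18 of 32 complex I subunits (median -0.91), 6 and 38 of 65 ribosomal proteins (-0.80), 5 and 12 of 28 further assembly factors (-0.39), 3 and 6 of 17 citric acid cycle enzymes (-0.50) and 7 and 1 of 12 regulators (0.62). GABPA, the DNA-binding part of GABP, rose in both lines. Its log2 change was 2.59 in control (SE 0.16, edgeR adjusted p = 6.24e-15) and 3.05 in ZC3H7B-OE (SE 0.17, adjusted p = 1.61e-16). Its level over the 4 times was lower in ZC3H7B-OE (log2 difference -0.30, edgeR adjusted p = 0.00189). Between the lines, over the 4 times, the higher and lower calls were 5 and 7 for complex I, 13 and 15 for the ribosomal proteins, 2 and 6 for the further assembly factors, 3 and 6 for the citric acid cycle and 2 and 3 for the regulators. Without that library they were 10 and 6 for complex I, 19 and 11 for the ribosomal proteins, 5 and 7 for the further assembly factors, 3 and 6 for the citric acid cycle and 2 and 3 for the regulators.

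Labelled reads of the members fell in both lines. A slope over the hours of chase, relative to all reads of the library, could be fitted for 45 members. In control it was negative and called for 45 of 45, beside 75.5% of all 8763 entries, and in ZC3H7B-OE for 38 of 45, beside 72.3%. The median slope was -0.37 log2 units per h in control, against -0.26 for all entries, and -0.26 in ZC3H7B-OE, against -0.24. Without control 0 h replicate 3, 41 of 45 were called in control, beside 72.3% of all entries, with a median of -0.26. The difference of the slopes between the lines was called for 0 of 45 members (edgeR), beside 0.00% of all entries. At an unadjusted p under 0.05 there were 9, given without the share of all entries. Without that library there were 3, beside 412 of 9198 entries. By complex, the control median was -0.43 for complex II, -0.34 for complex III, -0.38 for complex IV and -0.34 for complex V, and -0.26, -0.29, -0.23 and -0.24 without that library.

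A half-life here is 1 h divided by the size of the slope, and it describes labelled reads relative to all reads. SDHAF1 had the steepest slope in control, -0.67 per h (SE 0.06, edgeR adjusted p = 1.73e-10), a half-life of 1.50 h. Its labelled share of reads was 83.6%, 83.2% and 81.2% before the chase, 80.2%, 81.2% and 81.6% after 2 h, 35.3%, 25.0% and 41.0% after 4 h, and 9.46%, 7.33% and 6.40% after 6 h. The loss thus lay almost wholly after 2 h, and the single slope averages over that course. This timing was not particular to SDHAF1. Over all reads in control the mean labelled share was 76.7%, 75.7%, 47.7% and 29.9% at 0, 2, 4 and 6 h. For the members' reads together it was 73.4%, 76.5%, 53.2% and 39.5%. Slopes and half-lives of other members may average over such a course too. ATP5J2-PTCD1 followed with -0.50 per h (half-life 1.98 h) and COX14, an assembly factor of complex IV, with -0.50 (half-life 2.02 h). Without control 0 h replicate 3 the slopes were -0.65 for SDHAF1, -0.56 for ATP5J2-PTCD1 and -0.34 for COX14.

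With all 24 libraries ATP5D had the shallowest slope in control, -0.19 per h (SE 0.04, edgeR adjusted p = 0.000292), a half-life of 5.32 h. Its labelled share stayed between 36.6% and 52.2% in all 12 control libraries. The next were UQCC2, an assembly factor of complex III, with -0.21 per h, and SDHA with -0.22 per h, for half-lives of 4.74 and 4.62 h. The order changed without control 0 h replicate 3: ATP5C1 (-0.11), ATP5A1 (-0.16) and UQCRC1 (-0.17) were the shallowest, none of them called, and ATP5D had -0.21, UQCC2 -0.23 and SDHA -0.22. ATP5EP2 too had a labelled share between 25.9% and 41.8% in control with no clear course, while its labelled reads fell with its reads by -0.47 per h (-0.24 without control 0 h replicate 3). A slope therefore holds both the change of the label's share and the change of the gene's level.

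**Figure D5:**
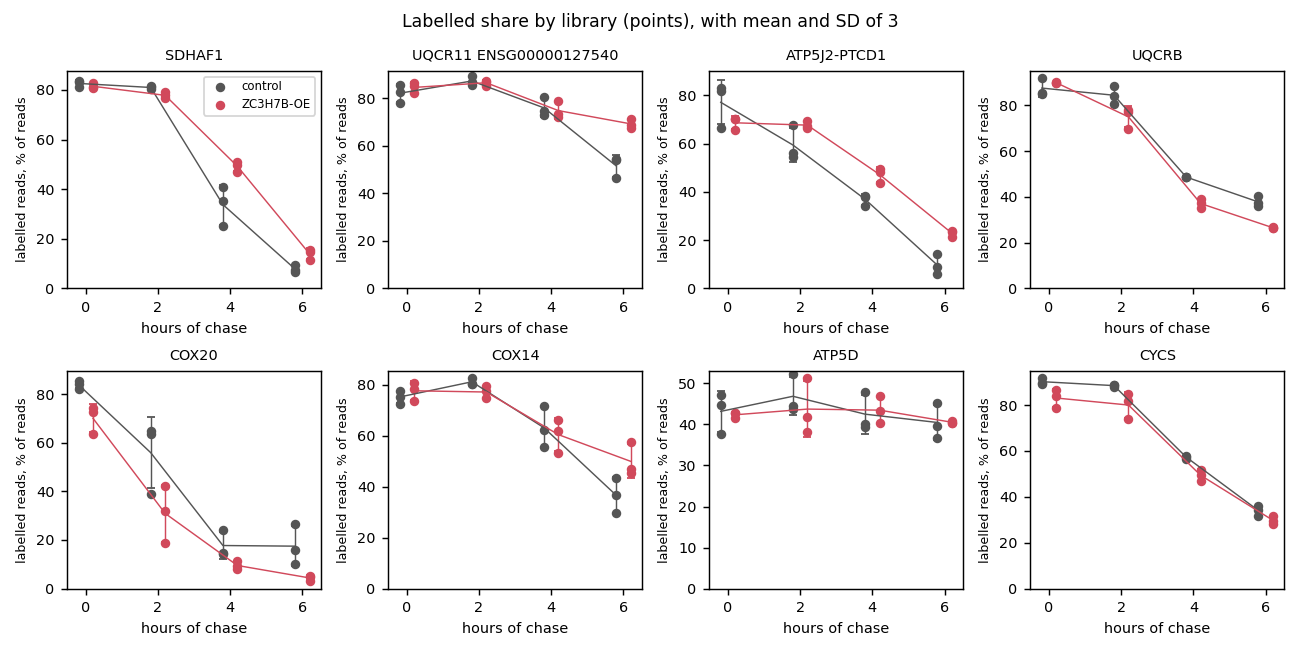
Labelled reads as a percentage of reads for 8 members in each library (points) against hours of chase, with the mean and SD of 3 libraries. SDHAF1, ATP5J2-PTCD1 and COX20 fall the furthest, ATP5D stays near its 0 h share, and at 6 h UQCR11 (ENSG00000127540) is higher and UQCRB lower in ZC3H7B-OE.

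The odds of labelled against unlabelled reads at 6 h differed between the lines for 7 of 46 members, 4 higher and 3 lower in ZC3H7B-OE, beside 3.54% and 2.77% of 9916 entries. UQCR11 (ENSG00000127540) had a labelled share of 54.0%, 54.3% and 46.4% in control and 68.9%, 71.4% and 67.6% in ZC3H7B-OE, with no overlap. The log2 odds differed by 1.09 (SE 0.21, edgeR adjusted p = 6.77e-05), and by 0.65 for the entry ENSG00000267059 (adjusted p = 0.0184). ATP5J2-PTCD1 had 14.2%, 5.71% and 8.90% against 23.5%, 23.9% and 21.3%, a log2 odds difference of 1.48 (SE 0.35, adjusted p = 0.00234). SDHAF1 had 9.46%, 7.33% and 6.40% against 11.4%, 14.6% and 15.6%, a difference of 0.94 (SE 0.27, adjusted p = 0.0202). These 4 entries, from complexes II, III and V, were also higher in level in ZC3H7B-OE.

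The 3 members with lower labelled odds in ZC3H7B-OE were COX20, UQCRB and ATP5L. COX20 had a labelled share of 26.4%, 10.2% and 15.7% in control and 3.08%, 5.09% and 4.92% in ZC3H7B-OE, a log2 odds difference of -2.13 (SE 0.51, edgeR adjusted p = 0.0153). UQCRB had 35.8%, 37.2% and 40.2% against 26.3%, 26.7% and 26.5%, a difference of -0.75 (SE 0.17, adjusted p = 0.00129). ATP5L had 51.5%, 55.3% and 55.4% against 39.3%, 40.8% and 38.2%, a difference of -0.85 (SE 0.25, adjusted p = 0.025). In each of the 3 the libraries of the lines did not overlap. CYCS, whose level differed by -1.22 between the lines over the 4 times, had 34.4%, 31.6% and 36.0% against 31.5%, 29.6% and 28.2% and was not called (difference -0.28, adjusted p = 0.336). ATP5G3 had 46.8%, 52.5% and 45.6% against 39.7%, 34.5% and 33.1%, and its difference of -0.73 was not called (adjusted p = 0.0741). ATP5L lost its call in 5 of 9 alternative settings, SDHAF1 and UQCR11 under ENSG00000267059 in 4 each and COX20 in 3, among them the fit of the 6 h libraries alone. UQCR11 under ENSG00000127540, ATP5J2-PTCD1 and UQCRB lost theirs in 0 of 9. The count fell to 4 when control replicate 3, or replicate 2 or 3 of ZC3H7B-OE, was left out at 6 h.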

How the data were processed

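The authors deposited 2 tables of whole-number counts, of all reads and of labelled reads, per the file headers, not normalized. The submitters' processing notes name fastp and GRCh37, and no source used here gives the aligner, the caller of conversions or how reads were assigned to genes. Members, complexes and lists were chosen with earlier results of these data known. All reads were fitted with edgeR 4.0.16 (R 4.3.3, robust quasi-likelihood, TMM after filterByExpr with a minimum count of 10, a mean per group), which kept 10038 of 19692 entries. P-values carry a Benjamini-Hochberg adjustment over all entries tested, with a threshold of 0.05, and "called" means an adjusted p under it. Labelled reads (8763 entries) were fitted as a slope per line with the sizes and TMM factors of all reads. Labelled odds (9916 entries) came from a joint fit of labelled and unlabelled reads with a term for each library. The members described one by one were, in each complex, up to 4 with the smallest adjusted p between the lines, the 3 extremes of the chase change and of the slope in control at either end, and up to 5 called for the odds, the slope difference or the interaction; CYCS, COX16, the other called members and those beside the promoters were added after their values were seen. For each gene list up to 4 genes could be named by the smallest adjusted p. Fits were tested on simulated data. Alternatives used DESeq2 1.42.0 (also its size factors), limma 3.58.1 (voom), no filter, other scalings, single times and each library left out. The bound for a count of 0 covers counting error only, and reads carry no molecular identifiers. Standard errors and SDs also hold the spread among libraries. No replicates were duplicates (chi-square per degree of freedom between 2.28 and 30.4).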

Additional observations from a re-analysis of the deposited data

How the results depend on the processing

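Calls with all libraries were followed for the line difference over the 4 times, the chase changes and the labelled odds at 6 h. None of these members changed its direction under an alternative. Calls at single times, members without a call, and single slopes were not followed this way. The uncalled change of UQCRB in control turned from -0.22 to 0.25 without control 0 h replicate 3. Of the recomputed values, 2461 kept their side of the threshold and 146 fell below it; SDHB and COX7B lost their call between the lines in 22 of 34 settings each, ATP5J2 in 6 and ATP5D in 1. Between the lines over the 4 times, 18 members were called by DESeq2, 16 by limma-voom and 17 with DESeq2's size factors in edgeR. With the libraries of a single time, the calls were 6 (0 h), 11 (2 h), 19 (4 h) and 11 (6 h). With no filter on low counts there were 17 at 4 h, 7 at 6 h and 24 for a difference changing along the chase. Leaving out 1 library gave between 13 and 31 calls (0 h), 2 and 10 (2 h), 4 and 20 (4 h), and 2 and 9 (6 h), 0 to 20 for the changing difference and 4 to 5 for the labelled odds. With 2 h as the start, chosen after seeing the data, 13 members changed in control and 15 in ZC3H7B-OE. With TMM factors of the labelled reads, which by construction remove the average loss of label, 16 members lost label in control and 6 in ZC3H7B-OE. The causes of the other shifts were not tested. Most counts in this section stand without the share of all entries called in the same setting. They are therefore not read as a result about the members. With a replicate block, 16 members were called over the 4 times, 22, 6, 10 and 4 in the single times in order, 37 and 31 over the chase, 45 and 38 for label loss and 7 for the odds. The numbers do not pair the samples: 7 of 84 same-number correlations were over 0.1, with a median of -0.0043, and 5 of 24 libraries correlated best with their own number. The 21 untested members had too few reads for the filter, for reasons that were not tested.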
